A study of Homo sapiens with 18 samples.

Results

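Transcripts of 9 feedback targets of Wnt signaling, AXIN2, NKD1, NKD2, NOTUM, RNF43, ZNRF3, LGR4, LGR5 and TNFRSF19, were followed in human oral squamous cell carcinoma (OSCC) lines in which β-catenin was inhibited or depleted. The genes were taken by symbol, and each was matched through its Entrez number to 1 of the 23786 probesets on Affymetrix Human Gene 2.0 ST arrays, so that all 9 were measured. RNA came from 6 groups with 3 arrays each. CAL27 and HSC-3 cells received 10 µM ICG-001 in 0.1% DMSO or the DMSO vehicle alone, and HSC-3 cells were transfected with 25 nM of a CTNNB1 siRNA pool (SMARTpool ON-TARGETplus) or of the matching non-targeting pool. ICG-001 is a small molecule that keeps β-catenin from binding the acetyltransferase CBP. Harvest was 48 to 64 h after the start of ICG-001 treatment. For the knockdown the sample labels also give 48 to 64 h, while the study's methods give 48 h. The 3 samples of a group were separate wells, not said to be separate cultures, and each treatment was tested in 1 or both of 2 lines, so that p-values measure the spread between wells of a line.

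In Wnt signaling, binding of a Wnt ligand to Frizzled and LRP receptors protects β-catenin from destruction, and β-catenin then joins TCF/LEF factors on DNA to switch on target genes. Some of these targets act back on the pathway itself. AXIN2 is a scaffold of the complex that destroys β-catenin, RNF43 and ZNRF3 are membrane ubiquitin ligases that remove Frizzled from the cell surface, NOTUM is a secreted enzyme that strips the lipid from Wnt ligands, and NKD1 and NKD2 bind Dishevelled. LGR4 and LGR5 act in the other direction as receptors for R-spondins, which clear RNF43 and ZNRF3 from the membrane, and TNFRSF19 is a receptor of the tumor necrosis factor receptor family.

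All values are log2 expression values. Array medians ran from 4.73 to 4.77 in the ICG-001 experiment (12 arrays) and, for the 6 siRNA arrays, from 4.68 to 4.73, and replicate arrays correlated at 0.993 or more. Both experiments were normalized separately by the authors, so no level was compared between them. Of the epithelial markers that could be named, 5 of 5 (EPCAM, CDH1, KRT5, KRT14 and SFN) were above the array median on all 18 arrays. Of 7 fibroblast markers 6 were above it on no array, while COL1A1 was above it on all 18 arrays (group means of 5.78 to 6.07). Also above it on no array were 3 of 5 leukocyte markers (PTPRC, CD3E and MS4A1) and 4 of 5 endothelial markers. A probeset was tested where 1 or more arrays of its experiment had it over the array median, which held for 13493 probesets in the ICG-001 experiment and 12682 in the siRNA experiment. A gene passed at an adjusted p of at most 0.05 (limma, Benjamini-Hochberg over all tested probesets).

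The 9 genes fell into 3 kinds by level. RNF43 and LGR4 were above the array median on all 18 arrays. ZNRF3 was above it on 10 of 12 ICG-001 arrays and 0 of 6 siRNA arrays, and NKD1 on 1 of 12 and 5 of 6. AXIN2, NKD2, NOTUM, LGR5 and TNFRSF19 were above it on 0 of 12 and 0 of 6 arrays, so these 5 were not tested and their values are given as a description. The plot of levels by group shows each gene on its own scale.

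**Figure D1:**
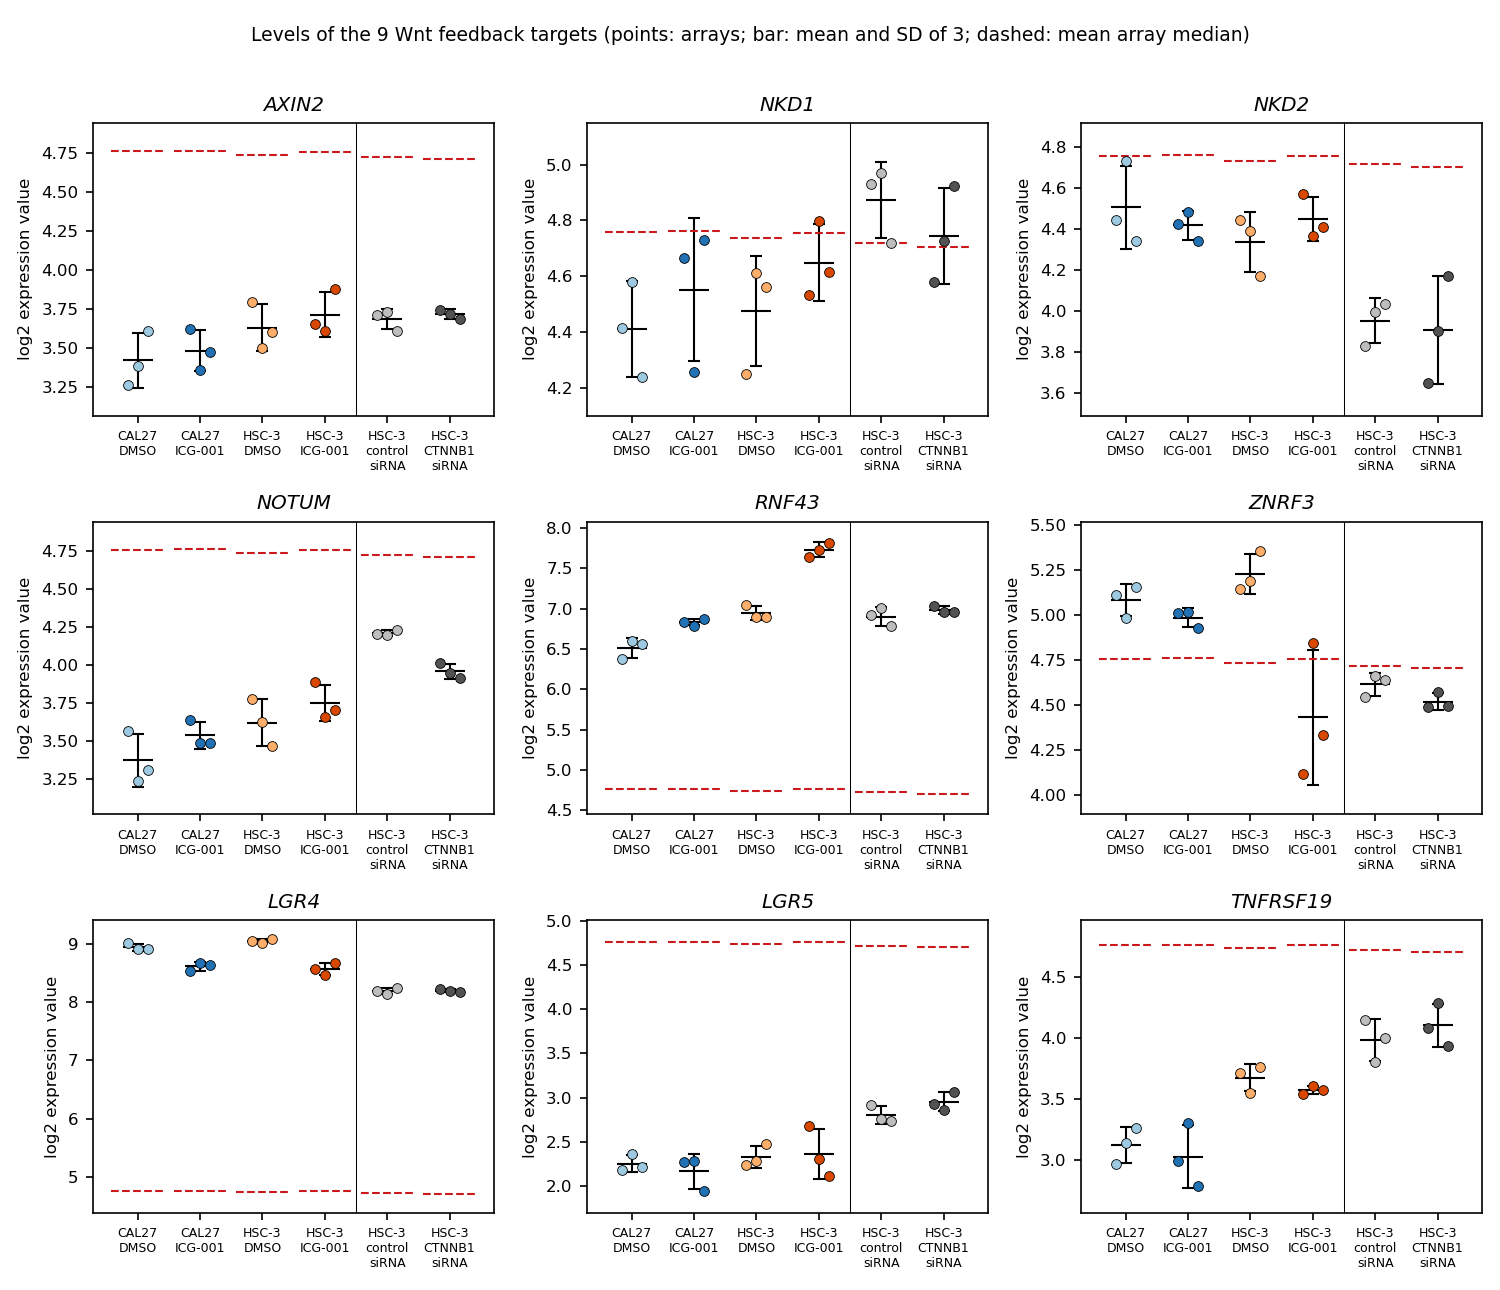
Log2 expression value of each of the 9 genes on every array (points) in the 6 groups, with mean and SD of 3 arrays (bars) and the mean array median of the group (dashed line); the vertical line separates the ICG-001 and siRNA experiments, which were normalized apart. RNF43 and LGR4 lie above the dashed line in every group, while AXIN2, NKD2, NOTUM, LGR5 and TNFRSF19 lie below it in every group.

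RNF43 and LGR4 were the only members that passed in both lines on ICG-001, in opposite directions, and their proximal promoters are shown for that reason. RefSeq windows of the 250 bases before a transcription start (GRCh38.p14) were at hand for 4 of the 9 genes, NKD2, RNF43, LGR4 and TNFRSF19. Each window was searched on both strands for CTTTGAT, the core letters of a TCF/LEF site, and for the shorter CTTTG, which lies within it. CTTTGAT occurred in 2.26% and CTTTG in 42.1% of 35116 promoter windows of the same length. RNF43 had windows at 2 starts, chr17:58417535-58417784 and chr17:58402722-58402971, and LGR4 had 1, chr11:27472791-27473040, all on the minus strand. The sequences are written 5′ to 3′ in the direction of transcription, with CTTTG or its reverse complement in capitals.
RNF43, first window: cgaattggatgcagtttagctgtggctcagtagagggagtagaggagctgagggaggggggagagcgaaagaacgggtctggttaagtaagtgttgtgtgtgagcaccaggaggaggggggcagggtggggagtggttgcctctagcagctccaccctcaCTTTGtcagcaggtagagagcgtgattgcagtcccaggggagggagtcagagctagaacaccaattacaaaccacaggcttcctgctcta
RNF43, second window: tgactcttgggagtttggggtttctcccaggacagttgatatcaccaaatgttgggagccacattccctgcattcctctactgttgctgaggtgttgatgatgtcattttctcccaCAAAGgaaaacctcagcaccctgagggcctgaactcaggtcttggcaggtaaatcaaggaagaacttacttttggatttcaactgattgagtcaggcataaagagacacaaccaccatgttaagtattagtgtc
LGR4: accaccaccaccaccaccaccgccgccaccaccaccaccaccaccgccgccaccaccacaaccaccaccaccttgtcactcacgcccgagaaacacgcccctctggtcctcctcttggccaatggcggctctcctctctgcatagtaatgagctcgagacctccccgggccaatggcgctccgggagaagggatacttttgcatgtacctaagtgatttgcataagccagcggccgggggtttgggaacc
Each RNF43 window held the 5-letter motif 1 time, and the LGR4 window held it 0 times. CTTTGAT was in none of the 3 windows shown. A match of letters is a description and not a measured binding site.

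The knockdown itself was checked first. CTNNB1, which encodes β-catenin, had values of 10.22, 10.26 and 10.19 on control siRNA and of 7.35, 6.90 and 7.25 on CTNNB1 siRNA. All 3 knockdown arrays were far below the controls, with a log2 difference of -3.06 (SE 0.11, 8.34-fold, adjusted p = 0.000252, limma). On ICG-001 its log2 difference from DMSO was -0.30 in HSC-3 cells (adjusted p = 0.00398, limma) and -0.10 in CAL27 cells (95% confidence interval -0.27 to 0.061, adjusted p = 0.368, limma). These responses did not pass as different between the lines (-0.19, adjusted p = 0.0878, limma), though they did with a trend and robust prior (0.0356), with array weights (0.0242) and without CAL27 DMSO replicate 1 (0.0448).

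RNF43 rose on ICG-001 in both lines, and by more in HSC-3 cells, where the values were 7.04, 6.89 and 6.89 on DMSO and 7.64, 7.73 and 7.82 on ICG-001. In CAL27 cells they were 6.37, 6.60 and 6.56 on DMSO and 6.84, 6.79 and 6.87 on ICG-001. Every ICG-001 array was above every DMSO array of its line. The rise was 0.79 on the log2 scale in HSC-3 cells (SE 0.074, 1.73-fold, adjusted p = 0.000185, limma) and 0.32 in CAL27 cells (SE 0.086, 1.25-fold, adjusted p = 0.0442, limma). The responses differed between the lines by 0.47 (95% confidence interval 0.23 to 0.71, adjusted p = 0.0076, limma). On DMSO, RNF43 was already higher in HSC-3 than in CAL27 cells, by 0.43 (SE 0.078, adjusted p = 0.000447, limma), a comparison that shares its DMSO arrays with the responses. The order of the 4 group means was thus CAL27 on DMSO (6.51), CAL27 on ICG-001 (6.83), HSC-3 on DMSO (6.94) and HSC-3 on ICG-001 (7.73). The second and the third of these were close, at 6.79 to 6.87 against 6.89 to 7.04, and were not tested against each other.

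ZNRF3, the other ligase that removes Frizzled, moved the opposite way and passed in HSC-3 cells alone. Its values there were 5.15, 5.19 and 5.36 on DMSO and 4.12, 4.85 and 4.33 on ICG-001. The 3 ICG-001 arrays were below the 3 DMSO arrays but were themselves spread over a wider range, and 1 of the 3 was above the array median. The log2 difference was -0.80 (SE 0.18, 1.74-fold lower, adjusted p = 0.00844, limma), between -1.01 and -0.64 without single arrays. In CAL27 cells the values were 5.11, 4.99 and 5.16 on DMSO and 5.01, 5.02 and 4.93 on ICG-001, which overlapped. The difference there was -0.098 (95% confidence interval -0.28 to 0.087, adjusted p = 0.446, limma). The responses of the lines differed by -0.70 (95% confidence interval -1.15 to -0.25, adjusted p = 0.0232, limma). That difference did not pass without CAL27 DMSO replicate 2 (adjusted p = 0.0537, limma), HSC-3 DMSO replicate 3 (0.0550) or HSC-3 ICG-001 replicate 3 (0.0545). On DMSO the lines differed by 0.15 (95% confidence interval -0.17 to 0.46, adjusted p = 0.402, limma).

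LGR4, an R-spondin receptor, fell on ICG-001 in both lines. HSC-3 cells had 9.04, 9.02 and 9.08 on DMSO and 8.56, 8.46 and 8.66 on ICG-001. CAL27 cells had 9.01, 8.90 and 8.91 on DMSO and 8.52, 8.67 and 8.64 on ICG-001. The DMSO and ICG-001 arrays did not overlap in either line. The log2 difference was -0.49 in HSC-3 cells (SE 0.068, 1.40-fold lower, adjusted p = 0.00106, limma) and -0.33 in CAL27 cells (SE 0.079, 1.26-fold lower, adjusted p = 0.0308, limma). A difference between the responses did not pass, at -0.16 (95% confidence interval -0.37 to 0.06, adjusted p = 0.257, limma), nor did that between the lines on DMSO, at 0.11 (-0.047 to 0.26, adjusted p = 0.205, limma). The ICG-001 arrays of the 2 lines overlapped in level, at 8.46 to 8.66 in HSC-3 and 8.52 to 8.67 in CAL27 cells. LGR5, the related receptor known as a stem cell marker of the intestine, was far below the array median throughout, with group means between 2.17 and 2.37 on the ICG-001 arrays.

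NKD1, which binds Dishevelled, was tested but did not pass in any comparison. It met the level filter of the ICG-001 experiment through 1 array, HSC-3 ICG-001 replicate 2 (4.80 against an array median of 4.77). Its mean in that experiment was highest in that group (4.65), so its place among the tested genes follows in part from the filter. Without that array, or with a filter of 3 arrays, NKD1 was not tested in HSC-3 cells. HSC-3 cells had 4.25, 4.61 and 4.56 on DMSO and 4.53, 4.80 and 4.62 on ICG-001, a log2 difference of 0.17 (95% confidence interval -0.10 to 0.45, adjusted p = 0.248, limma). CAL27 cells had 4.41, 4.58 and 4.24 on DMSO and 4.67, 4.26 and 4.73 on ICG-001, a difference of 0.14 (-0.19 to 0.47, adjusted p = 0.545, limma). The groups overlapped in both lines, and these intervals leave room for a rise as large as that of RNF43 in CAL27 cells.

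Among the 5 genes below the array median, AXIN2 is widely used as a readout of β-catenin activity. It had 3.79, 3.50 and 3.60 on DMSO and 3.65, 3.61 and 3.88 on ICG-001 in HSC-3 cells. In CAL27 cells it had 3.26, 3.38 and 3.61 on DMSO and 3.62, 3.36 and 3.47 on ICG-001. The arrays overlapped in both lines, with differences of 0.083 (95% confidence interval -0.18 to 0.35) and 0.063 (-0.21 to 0.34). A fall is hard to see at levels this far below the array median. NKD2, the paralog of NKD1, had group means between 4.34 and 4.51 on the ICG-001 arrays, and its groups overlapped within each line. NOTUM had means of 3.62 on DMSO and 3.75 on ICG-001 in HSC-3 cells and of 3.37 and 3.53 in CAL27 cells, again with overlap. TNFRSF19 was the member of this group with the clearest gap between the lines. Its DMSO arrays read 3.71, 3.54 and 3.76 in HSC-3 and 2.96, 3.14 and 3.26 in CAL27 cells, a difference of 0.55 (95% confidence interval 0.28 to 0.82) with no overlap, and its differences on ICG-001 were -0.099 (-0.29 to 0.092) and -0.096 (-0.43 to 0.24). It was the only 1 of the 5 that passed between the lines when all probesets were tested (adjusted p = 0.0036, limma). Such a difference was common: of the probesets that met the level filter, 33.0% passed as higher and 31.2% as lower between the lines on DMSO.

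Counted together, 4 members were tested on ICG-001, of which NKD1 met the filter through 1 array alone. Among these 4, RNF43 was higher and ZNRF3 and LGR4 were lower in HSC-3 cells. Of all probesets tested there, 26.7% passed as higher and 26.1% as lower, so a change was common in these cells whatever the gene. In CAL27 cells 1 of 4 was higher and 1 lower, against 6.91% and 7.40% of all tested probesets. Both CAL27 calls rested on all 6 arrays and ended without any 1 of them, RNF43 with an adjusted p of up to 0.145 and LGR4 of up to 0.0950 (limma), and both ended when all probesets were tested. The test of the difference between the responses passed for RNF43, more positive in HSC-3 than in CAL27 cells, and for ZNRF3, more negative, as it did for 15.6% and 15.2% of all tested probesets in these directions. On DMSO 1 of 4 was higher and 0 were lower in HSC-3 than in CAL27 cells, beside 33.0% and 31.2% of all.

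**Figure D2:**
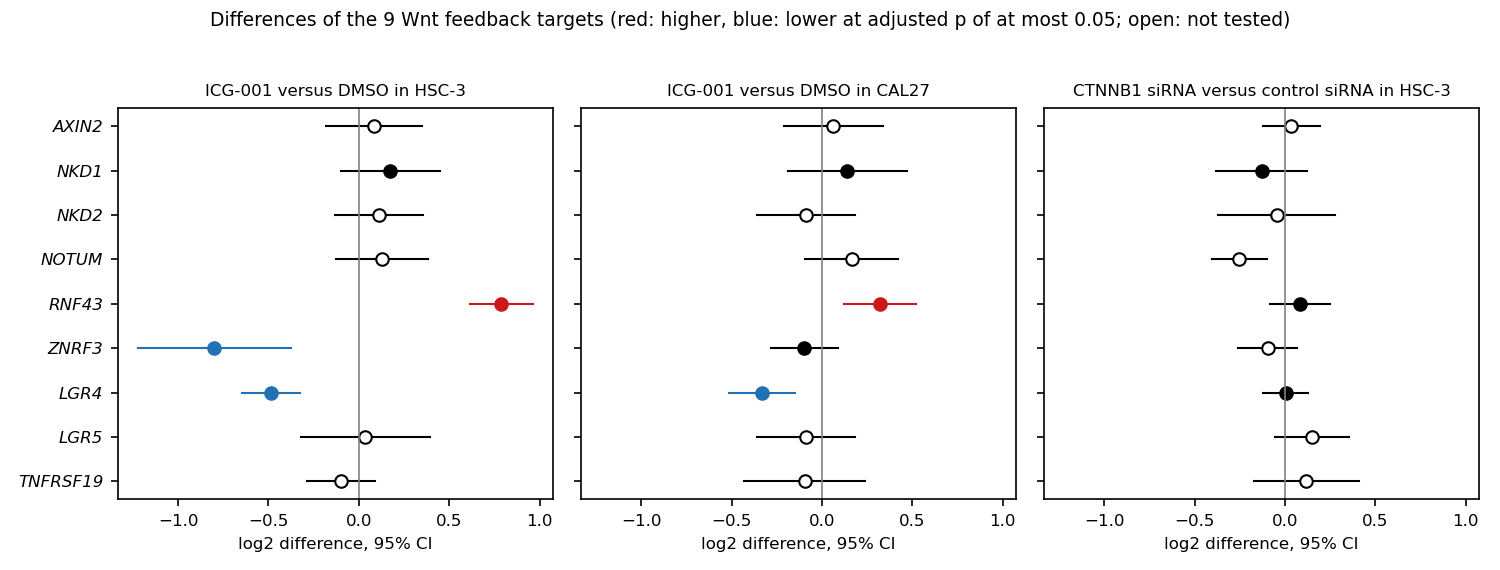
Log2 difference with its 95% confidence interval for each of the 9 genes in the 3 treatment comparisons; filled points were tested, with red for genes that passed as higher and blue for those that passed as lower. RNF43 rose by 0.79 in HSC-3 and 0.32 in CAL27 cells, LGR4 had -0.49 and -0.33, ZNRF3 had -0.80 in HSC-3 cells, and none of the 3 genes tested in the knockdown passed.

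Proliferation genes moved with ICG-001 in the same arrays. Of 6 proliferation markers 6 were lower in HSC-3 cells (median log2 difference -1.18, against 0.00081 over all tested probesets), beside 26.1% of all. In CAL27 cells 5 were lower (median -0.46, against 0.0044), beside 7.40% of all. The CAL27 count was 3 without DMSO replicate 1 and 2 without DMSO replicate 2, without replicate 2 or 3 of ICG-001 or without the intensity filter. Their mean level per array was 9.56 to 9.63 on DMSO and 8.33 to 8.56 on ICG-001 in HSC-3 cells, and 9.54 to 9.73 and 9.16 to 9.29 in CAL27 cells. All 6 responses differed between the lines by limma, more negative in HSC-3 than in CAL27 cells, beside 15.2% of all tested probesets in that direction. The 5 epithelial markers had mean levels of 10.94 to 11.02 on DMSO and 10.66 to 10.69 on ICG-001 in HSC-3 cells, and of 10.04 to 10.19 and 9.88 to 9.92 in CAL27 cells. They did not move as 1 group: in HSC-3 cells KRT14 (-1.04), KRT5 (-0.54) and SFN (-0.24) passed as lower and CDH1 (0.21) as higher, and in CAL27 cells KRT14 (-0.96) was the marker that passed. Of the markers of other cells, CD14, of monocytes, and CDH5, of endothelium, were lower on ICG-001 in CAL27 cells (-1.29, adjusted p = 0.00116, and -0.87, adjusted p = 0.0021, limma) with group means of 5.56 and 4.28 for CD14 and of 8.25 and 7.39 for CDH5. In HSC-3 cells both were below the array median on every array, with means of 3.81 and 3.83 on DMSO. CD14 met the level filter through the 3 CAL27 DMSO arrays alone, the group where it was highest. Its place among the tested genes thus follows in part from the filter. CSF1R, of monocytes and macrophages, was above the array median on 5 of 6 CAL27 arrays and 1 of 6 HSC-3 arrays of the ICG-001 experiment, and on 5 of 6 siRNA arrays, at values of 4.47 to 4.93. The other markers of both lists, PTPRC, CD3E, MS4A1, PECAM1, VWF, KDR and TEK, stayed below it on all 18 arrays. The mean level per array of the 5 leukocyte markers was 3.24 to 3.33 on DMSO and 2.97 to 3.09 on ICG-001 in CAL27 cells, and 2.80 to 2.91 and 2.77 to 2.89 in HSC-3 cells. That of the 5 endothelial markers was 3.97 to 4.04 and 3.77 to 3.93 in CAL27 cells, and 3.15 to 3.24 and 2.78 to 3.19 in HSC-3 cells. Their part in the results for RNF43, ZNRF3 and LGR4 was not tested. In bulk RNA, fewer cells that carry a transcript and less of it per cell cannot be told apart.

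In the CTNNB1 KD none of the tested members was separated from the controls. RNF43 had 6.92, 7.01 and 6.78 on control siRNA and 7.04, 6.96 and 6.96 on CTNNB1 siRNA, a log2 difference of 0.082 (95% confidence interval -0.086 to 0.25, adjusted p = 0.679, limma). LGR4 had 8.20, 8.14 and 8.24 and then 8.22, 8.19 and 8.17, a difference of 0.0024 (-0.12 to 0.13, adjusted p = 0.988, limma). NKD1 had 4.93, 4.97 and 4.72 and then 4.58, 4.73 and 4.92, a difference of -0.13 (-0.38 to 0.12, adjusted p = 0.658, limma). The groups overlapped for all 3 genes. The intervals exclude a rise of RNF43 and a fall of LGR4 as large as those measured on ICG-001 in HSC-3 cells, in arrays that were normalized apart and wells that were handled differently.
Thus 0 of 3 tested members passed in either direction by limma. At an unadjusted p below 0.05 there were 0 of 3, beside 1615 of all 12682 tested probesets. Few genes passed at all in this comparison, 0.00789% of the tested probesets higher and 0.0867% lower, or 1 and 11 of 12682, so the count says little about the members.

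The other 6 members were not tested in the knockdown. ZNRF3 had 4.54, 4.66 and 4.64 on control siRNA and 4.49, 4.57 and 4.49 on CTNNB1 siRNA, with overlap and a difference of -0.097 (95% confidence interval -0.26 to 0.065). NOTUM had 4.20, 4.20 and 4.23 and then 4.01, 3.95 and 3.91. These NOTUM arrays did not overlap, with a difference of -0.25 (-0.40 to -0.10) at levels below the array median, and it did not pass when all probesets were tested (adjusted p = 0.417, limma). AXIN2 had 3.71, 3.73 and 3.61 and then 3.74, 3.72 and 3.69, a difference of 0.034 (-0.12 to 0.19). NKD2 (-0.046), LGR5 (0.15) and TNFRSF19 (0.12) also overlapped between the groups. The 6 proliferation markers had a median log2 difference of -0.033 in the knockdown and 0 of 6 passed. At an unadjusted p below 0.05 there was 1 of 6, beside 1615 of all 12682 tested probesets. With a trend and robust prior 1 of 6 passed as lower.

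**Figure D3:**
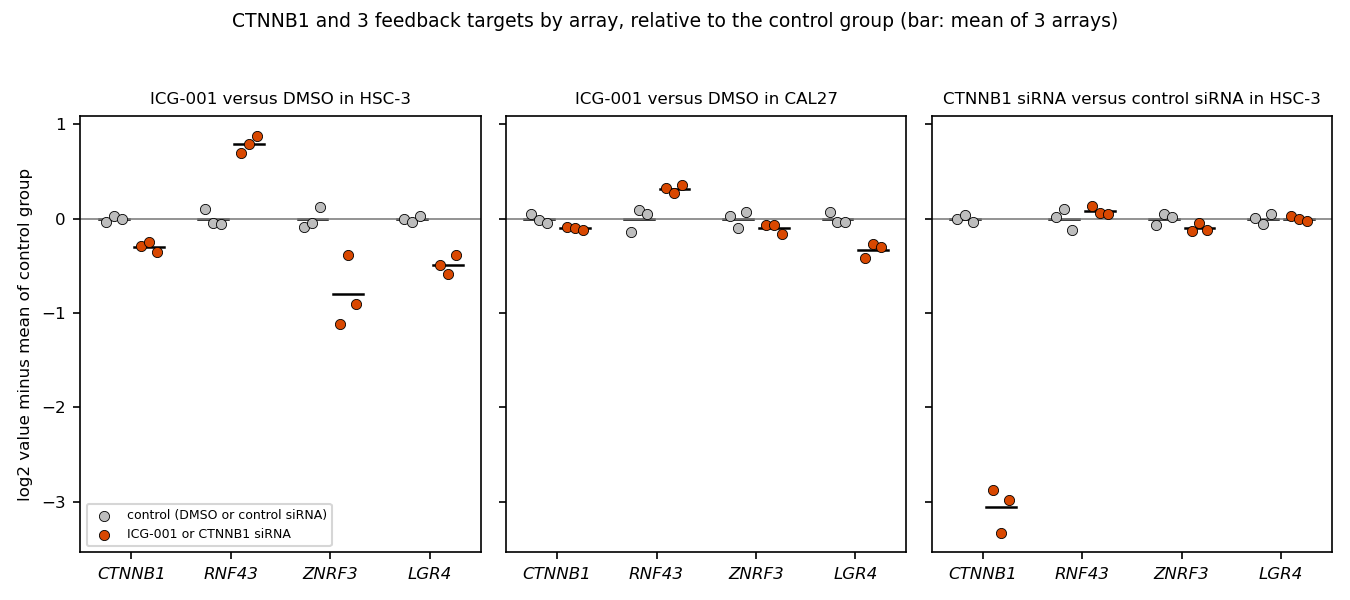
Log2 value of each array minus the mean of its control group (DMSO or control siRNA) for CTNNB1, RNF43, ZNRF3 and LGR4, with the mean of the 3 arrays of each group as a bar. On ICG-001 the HSC-3 arrays of RNF43, ZNRF3 and LGR4 are away from the controls, and CTNNB1 moved by -0.30. In the knockdown CTNNB1 moved by -3.06, and RNF43 (0.082) and LGR4 (0.0024) did not pass. ZNRF3 (-0.097) was below the array median on all 6 siRNA arrays and was not tested there.

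Genes elsewhere in the pathway were counted in the same fits. Of 13 tested other transcriptional targets, 3 passed as higher and 7 as lower on ICG-001 in HSC-3 cells (median log2 difference -0.33), beside 26.7% and 26.1% of all tested probesets. In CAL27 cells 3 were higher and 2 lower (median 0.0065), beside 6.91% and 7.40% of all. The same shares apply to the lists that follow. LEF1, which carries β-catenin to DNA, fell by 1.21 on the log2 scale in HSC-3 cells, and the Wnt antagonist DKK1 by 0.82. LEF1 met the level filter through the 3 HSC-3 DMSO arrays alone, the group where it was highest. Its place in this count thus follows in part from the filter. KREMEN1, a receptor for Dickkopf proteins, fell in both lines, by 0.88 (HSC-3) and 0.66 (CAL27). The metalloprotease gene MMP7 had the largest change of the list in CAL27 cells, where it fell by 2.41 (SE 0.15, adjusted p = 0.000118, limma). The cell cycle gene CCND1 rose in CAL27 cells, by 0.55, and fell in HSC-3 cells, by 0.51 (adjusted p = 0.000744, limma). Its response differed between the lines by -1.06 (adjusted p = 7.75e-05, limma). The 3 targets that passed as higher in HSC-3 cells were FZD7 (0.64), EPHB3 (0.62) and MYC (0.32). In the ICG-001 experiment EPHB3 was above the array median in HSC-3 cells alone, on 1 of 3 DMSO and 3 of 3 ICG-001 arrays.

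Of 12 tested receptors and R-spondins, 4 passed as higher and 1 as lower in HSC-3 cells (median 0.098), and 1 higher and 0 lower in CAL27 cells (median -0.041). The Frizzled receptor gene FZD7, which is also counted among the transcriptional targets, rose in both lines, by 0.64 in HSC-3 and 0.79 in CAL27 cells. FZD6 (0.49) and FZD10 (0.53) rose and FZD2 fell by 0.61 in HSC-3 cells. FZD10 met the level filter through 1 array, of HSC-3 cells on ICG-001, the group where it was highest, so its place in this count follows in part from the filter, and without that array (replicate 1) it was not tested. It also no longer passed without HSC-3 DMSO replicate 1 (adjusted p = 0.0574, limma) or ICG-001 replicate 2 (0.0604). Of 18 tested genes of the destruction complex and Dishevelled, 8 passed as higher and 1 as lower in HSC-3 cells (median 0.17), and 1 higher and 0 lower in CAL27 cells (median 0.070). RNF146, the ligase that marks axins modified by tankyrase for degradation, rose in both lines, by 0.80 (HSC-3) and 0.40 (CAL27). The CAL27 count for this list, 1 with RNF146, ranged from 0 without DMSO replicate 2 or without replicate 1 or 2 of ICG-001, to 2 without DMSO replicate 1 or with a trend and robust prior, 3 in 1 fit over 12 arrays and 4 with array weights. The tankyrase genes TNKS (0.40) and TNKS2 (0.35) and the kinase gene CSNK1D (0.35) rose in HSC-3 cells, and the gene that fell was CTNNB1. Of 4 tested genes for Wnt acylation, secretion and glypicans, GPC1 was higher in HSC-3 cells (0.28, adjusted p = 0.0253, limma). That call ended without the intensity filter (adjusted p = 0.0644, limma) and without HSC-3 DMSO replicate 1 or 2 or ICG-001 replicate 2 or 3. In CAL27 cells 0 of 4 passed.
In the knockdown 0 of 11 tested other targets, 0 of 10 receptors and R-spondins and 0 of 3 acylation, secretion and glypican genes passed by limma. At an unadjusted p below 0.05 the numbers were 2, 2 and 0, beside 1615 of all 12682 tested probesets. With a trend and robust prior 1 of the 11 other targets passed as lower. Of 17 destruction complex and Dishevelled genes 1 passed, CTNNB1 itself.

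**Figure D4:**
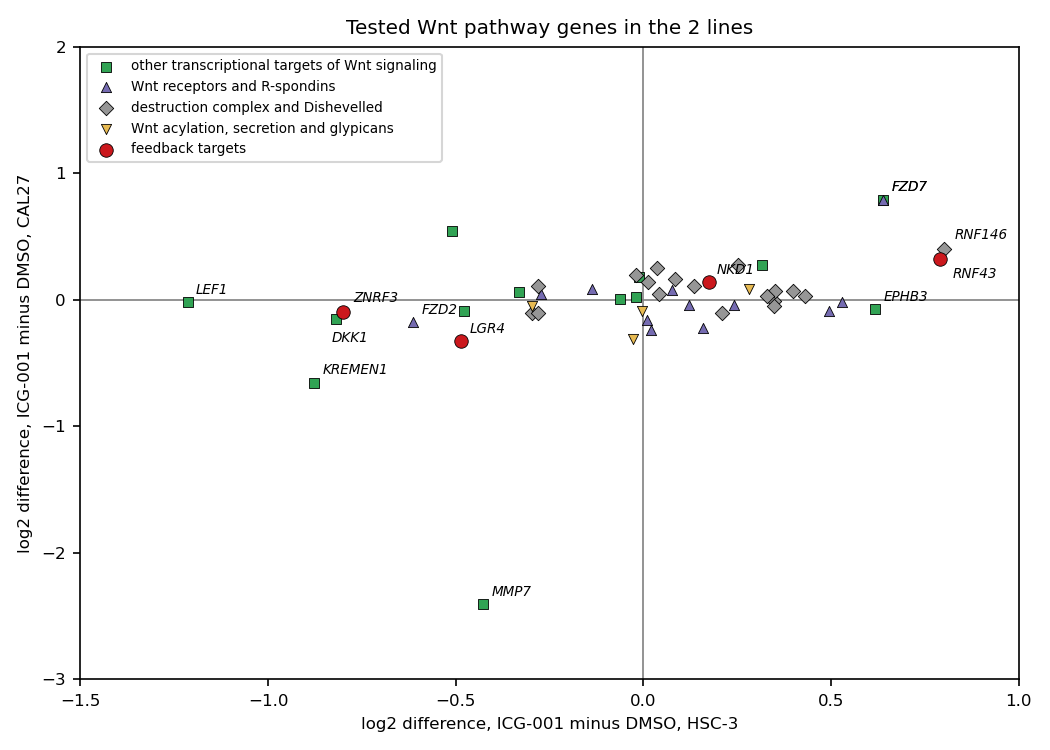
Log2 difference between ICG-001 and DMSO in HSC-3 cells (horizontal) and in CAL27 cells (vertical) for each tested gene of 5 Wnt pathway lists, with the feedback targets as red circles and FZD7 drawn in both lists that hold it. RNF43 lies beside RNF146 with a rise in both lines, LGR4 and KREMEN1 are lower in both, and ZNRF3 lies with DKK1, lower in HSC-3 cells and near 0 in CAL27 cells.

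The genes whose levels ran most like those of the 3 responders were taken by Pearson correlation over the 12 ICG-001 arrays, which hold 2 lines and 2 treatments and so share those group differences. For RNF43 these were SBF2-AS1 (0.993), TIMP2 (0.989) and SEC31A (0.989). For LGR4 they were NECTIN3 (0.973), FRYL (0.967) and CAND1 (0.957). For ZNRF3 they were UQCC3 (0.918), CD274 (0.917) and PPP4C (0.909), at lower values than for the other 2 genes.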

How the data were processed

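Affymetrix Human Gene 2.0 ST arrays of 18 samples were used, and each was assigned to 1 of 6 groups by its title. The deposited log2 values were made by the authors by RMA (background correction, quantile normalization and summary of probes), using affy 1.36.1 in R 2.15.1 per the submitters' processing notes, each probeset standing for 1 Entrez gene. The siRNA arrays were normalized with further arrays that are not used here. The sources used here do not name the genome build of the probesets. The table held 0 other columns of values. Symbols were found for 22458 of 23786 probesets, and 1328 are unnamed here.

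Groups were compared with limma 3.58.1 in R 4.3.3 on the tested probesets, two-sided, in separate fits of 6 arrays for HSC-3, CAL27 and the knockdown, and over 12 arrays for the difference between responses and between lines on DMSO. The steps were tested on simulated data. Precision is limited by the number of arrays. All 9 members are named, with CTNNB1, up to 4 genes with the smallest adjusted p per list and comparison, of which part is given, and 3 correlated genes per responding member. Members and lists were chosen with earlier results of these data known. Marker genes without a symbol here were not analysed. Alternatives were no filter, a filter of 3 arrays, a stricter threshold, cyclic loess, equal medians, array weights, a trend and robust prior, 1 fit over 12 arrays, a replicate block and leaving out each array. A variance prior from all probesets, a possible reading of the study's steps, was added after seeing the data.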

Additional observations from a re-analysis of the deposited data

Results flagged for a closer look

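The response of RNF43 to ICG-001 differed between the lines by 0.47 on the log2 scale, HSC-3 minus CAL27 (adjusted p = 0.0076, limma), as a rise of 0.79 in HSC-3 and of 0.32 in CAL27 cells. That of ZNRF3 differed by -0.70 (adjusted p = 0.0232, limma), with differences of -0.80 in HSC-3 and -0.098 in CAL27 cells. Both are listed because the test of the difference between the lines itself passed. The 3 HSC-3 arrays of ZNRF3 on ICG-001 spread from 4.12 to 4.85, all below the 3 DMSO arrays.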

How the results depend on the processing

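Of 292 values of single members under the alternatives, 262 kept their direction and their side of the threshold, and 20 no longer passed. In HSC-3 cells 2 to 3 members passed throughout. In CAL27 cells the 2 members that passed became 0 without the intensity filter, under the stricter threshold (adjusted p of at most 0.01 and 1.5-fold), with the replicate block, and without any single array (0 to 0), and 1 (LGR4) with the variance prior from all probesets. For the difference between responses, 2 members became 0 under the stricter threshold and 1 to 2 without single arrays. For the lines on DMSO, 1 became 2 without the filter or with array weights and 0 under the stricter threshold. The cause of these changes was not tested. Values near 0 changed sign: LGR4 in the knockdown to -0.0038 with cyclic loess and -0.025 to 0.026 without single arrays, the NKD1 response difference between -0.11 and 0.12 without single arrays, and NKD1 between the lines to -0.074 with array weights and -0.021 to 0.18 without single arrays. Of 952 values of other genes, 915 were unchanged in call and direction and 0 changed sign.

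Samples were not paired by replicate number in the main fits. Deviations of samples of the same number correlated at -0.019 to 0.047 in HSC-3 cells, 0.028 to 0.18 in CAL27 cells and -0.0074 to 0.045 in the knockdown. The closest match had the same number for replicate 1 in HSC-3 cells, replicates 1 and 3 in CAL27 cells and replicates 2 and 3 in the knockdown. With 3 arrays per group this check cannot decide whether the samples were paired. With the replicate block 0 members passed in CAL27 cells (RNF43 adjusted p = 0.0643 and LGR4 0.059, limma), and no other count of members changed by over 1.5 times.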
